A study of Mus musculus with 4 samples.

Results

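Cytochrome P450 genes were examined in liver tumours of mice fed Akkermansia muciniphila (AKK) and of mice given phosphate-buffered saline (PBS). Members were the genes whose mouse symbol is written as Cyp, a family number, a subfamily letter and a gene number, with 10 or more reads summed over the 4 libraries. This gave 61 of the 94 genes with such a symbol, among 21127 genes of any kind with 10 or more reads. Of the other 33 P450 genes, 20 had 0 reads in all libraries and 13 had 1 to 9. All mice were C57BL/6, received a methionine- and choline-deficient (MCD) diet for 2 weeks and then carried RIL-175, a mouse hepatoma cell line labelled with luciferase, implanted in the liver. The AKK group (2 libraries) was fed 5000000000 colony-forming units of the bacterium and the PBS group (2 libraries) the buffer, from 2 weeks before the diet, with a pause of 6 days after surgery. Feeding then went on to the end of the experiment. The labels call the libraries of a group biological replicates and give neither age nor sex nor whether they came from separate mice. P-values therefore measure the spread between these libraries, which may be technical.

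Cytochromes P450 are haem enzymes that insert an oxygen atom into their substrates. In the endoplasmic reticulum they draw electrons from the reductase Por, and in mitochondria from ferredoxin. Hepatocytes carry most of the drug-metabolising families (Cyp1, Cyp2 and Cyp3) as well as enzymes of bile acid synthesis and of omega-hydroxylation of fatty acids. Other members make or break down steroid hormones, vitamin D and retinoic acid in many tissues. Nuclear receptors and liver transcription factors, among them HNF4, CAR (Nr1i3) and PXR (Nr1i2), are known to control the hepatic genes.

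In what follows, 4 values in a row stand in the order PBS 1, PBS 2, AKK 1, AKK 2, and 2 against 2 values in the same order. The libraries held 48912489 to 59027227 reads on genes. Levels are given as CPM, the reads of a gene scaled to library size, and 1 read is worth 0.0171 to 0.0210 CPM. Mitochondrial reads made up 3.92% of AKK 1 and 1.64 to 2.33% of the remaining libraries, and reads of ribosomal proteins 6.33% and 3.29 to 3.98%. AKK and PBS tables are also named by differing schemes, and a cohort effect, if the schemes mark one, cannot be told apart from the feeding. The bulk libraries also cannot tell fewer cells of a type from less RNA per cell. Against the label liver tumour, 10 hepatocyte markers outside the family were read first. In 9 of these both AKK libraries exceeded both PBS libraries (25.7% of all genes with 10 or more reads did), and the 9 summed to 5.47, 12.6, 599 and 189 CPM. Apob, the exception, read 241 and 584 against 164 and 468 CPM. Alb, the most abundant hepatocyte transcript, read 0.300, 0.988, 156 and 25.4 CPM. These marker values stand beside every hepatic P450 value that follows. Their part in those values was not tested.

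Promoter stretches are shown first, since many members were low in the same libraries, and they were searched for 11 short words chosen after the values were seen. RefSeq promoters (build GRCm38.p6) were matched by symbol for 48 of the 61 members, and the 250 bases before the start were searched. The word TGNACTTTG, an HNF4-type element read on both strands, occurred in 10 of 48 members (20.8%) against 1.40% of 27025 genes. The word TATAAA, read on the gene's own strand, occurred in 15 of 48 (31.2%) against 8.94% of all genes. In the 150-base stretches below, capitals mark these words in the first 6 genes and GCGTG, the core of the aryl hydrocarbon receptor element, read on both strands, in Cyp20a1. Cyp2e1 and Cyp1a2 carry a TATA word close to the start, Cyp8b1 carries both words, Cyp3a11 and the neighbouring paralogs Cyp2c37 and Cyp2c50 carry the HNF4-type word, and Cyp20a1, which was read in every library, carries neither. This holds for the stretches shown, and Cyp3a11 has a TATAAA farther upstream, within the 250 bases searched.
Cyp2e1 (chr7:140763669-140763818, plus strand): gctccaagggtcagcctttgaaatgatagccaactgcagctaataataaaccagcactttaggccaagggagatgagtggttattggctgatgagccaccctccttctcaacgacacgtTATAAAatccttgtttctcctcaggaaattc
Cyp1a2 (chr9:57683656-57683805, minus strand): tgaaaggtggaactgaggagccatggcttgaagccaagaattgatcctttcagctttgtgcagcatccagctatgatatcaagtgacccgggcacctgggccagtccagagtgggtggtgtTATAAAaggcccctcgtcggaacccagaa
Cyp8b1 (chr9:121916306-121916455, minus strand): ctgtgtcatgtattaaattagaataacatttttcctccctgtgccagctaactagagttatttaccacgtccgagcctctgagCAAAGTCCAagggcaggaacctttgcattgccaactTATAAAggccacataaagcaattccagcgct
Cyp3a11 (chr5:145879855-145880004, minus strand): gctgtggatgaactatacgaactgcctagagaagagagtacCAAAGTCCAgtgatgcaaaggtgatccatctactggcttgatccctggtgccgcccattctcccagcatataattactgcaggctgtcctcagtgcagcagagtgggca
Cyp2c37 (chr19:39992274-39992423, plus strand): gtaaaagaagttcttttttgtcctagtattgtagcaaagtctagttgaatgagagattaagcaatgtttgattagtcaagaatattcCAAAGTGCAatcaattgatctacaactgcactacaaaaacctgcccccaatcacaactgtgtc
Cyp2c50 (chr19:40089529-40089678, plus strand): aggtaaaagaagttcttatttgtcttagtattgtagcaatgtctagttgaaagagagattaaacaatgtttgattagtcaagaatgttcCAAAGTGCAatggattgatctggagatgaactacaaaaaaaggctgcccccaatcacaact
Cyp20a1 (chr1:60343150-60343299, plus strand): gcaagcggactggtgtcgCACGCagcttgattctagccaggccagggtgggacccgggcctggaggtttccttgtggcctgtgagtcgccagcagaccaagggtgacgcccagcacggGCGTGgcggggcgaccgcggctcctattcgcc

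The HNF4-type word lay in Cyp2c37, Cyp2c50, Cyp2c65, Cyp2c67, Cyp2c68, Cyp2c70, Cyp2d26, Cyp3a11, Cyp8b1 and Cyp26a1. Most of these are Cyp2c genes, and promoters of close copies, such as Cyp2c37 and Cyp2c50, are not independent in such a share. Among the members with at most 3 reads in each PBS library the HNF4-type word occurred in 7 of 25 with a promoter. Among the other members it occurred in 3 of 23. TATAAA occurred in 10 of 25 and 5 of 23. GGGCGG, the GC box, went the other way, with 2 of 25 against 12 of 23 and 35.4% of all genes. GCGTG occurred in 4 of 25 and 6 of 23, against 30.9% of all genes. The other words searched on both strands were the HNF1-type word (1 member of 48, 0.440% of genes), TNGCGTG, which contains GCGTG (1, 4.76%), TTNNGCAA (8, 10.8%), CCAAT (25, 37.5%), TGTTTAC (4, 3.54%), TGTTTGC (2, 4.93%) and TTATGTAA (0, 0.977%). Split in the same way, of 25 and of 23, TTNNGCAA occurred in 6 and 2, CCAAT in 10 and 15, TGTTTAC in 3 and 1 and TGTTTGC in 0 and 2. The HNF1-type word and TNGCGTG each occurred in 1 and 0. A match is a description of letters in this window and shows no binding.

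The family was described in parts, members that PBS tumours nearly lacked and the rest. In 32 of 61 members each PBS library held at most 3 reads, where 4.88% of all genes with 10 or more reads did. No member was that low in both AKK libraries (0 of 61, 3.77% of all genes). A gene this low in PBS can enter the family by the rule only through its AKK reads, so its higher AKK level is partly set by the choice. Both AKK libraries lay above both PBS libraries in 33 of 61 members (25.7% of all genes), and both lay below in 0 of 61 (24.3% of all genes). Those 33 were 28 of the 32 members nearly absent from PBS and 5 of the 29 others. The 32 members nearly absent from PBS took 0.256% of all P450 reads in PBS 1 (95% exact binomial interval 0.152 to 0.404%) and 0.263% in PBS 2 (0.168 to 0.391%). They took 28.7% in AKK 1 (27.9 to 29.5%) and 4.18% in AKK 2 (3.78 to 4.61%). These intervals cover counting error only, and the gap between the AKK libraries lies far outside them. Summed over all members, the family read 132, 192, 219 and 159 CPM in PBS 1, PBS 2, AKK 1 and AKK 2, so that its total level overlapped between the groups.

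**Figure D1:**
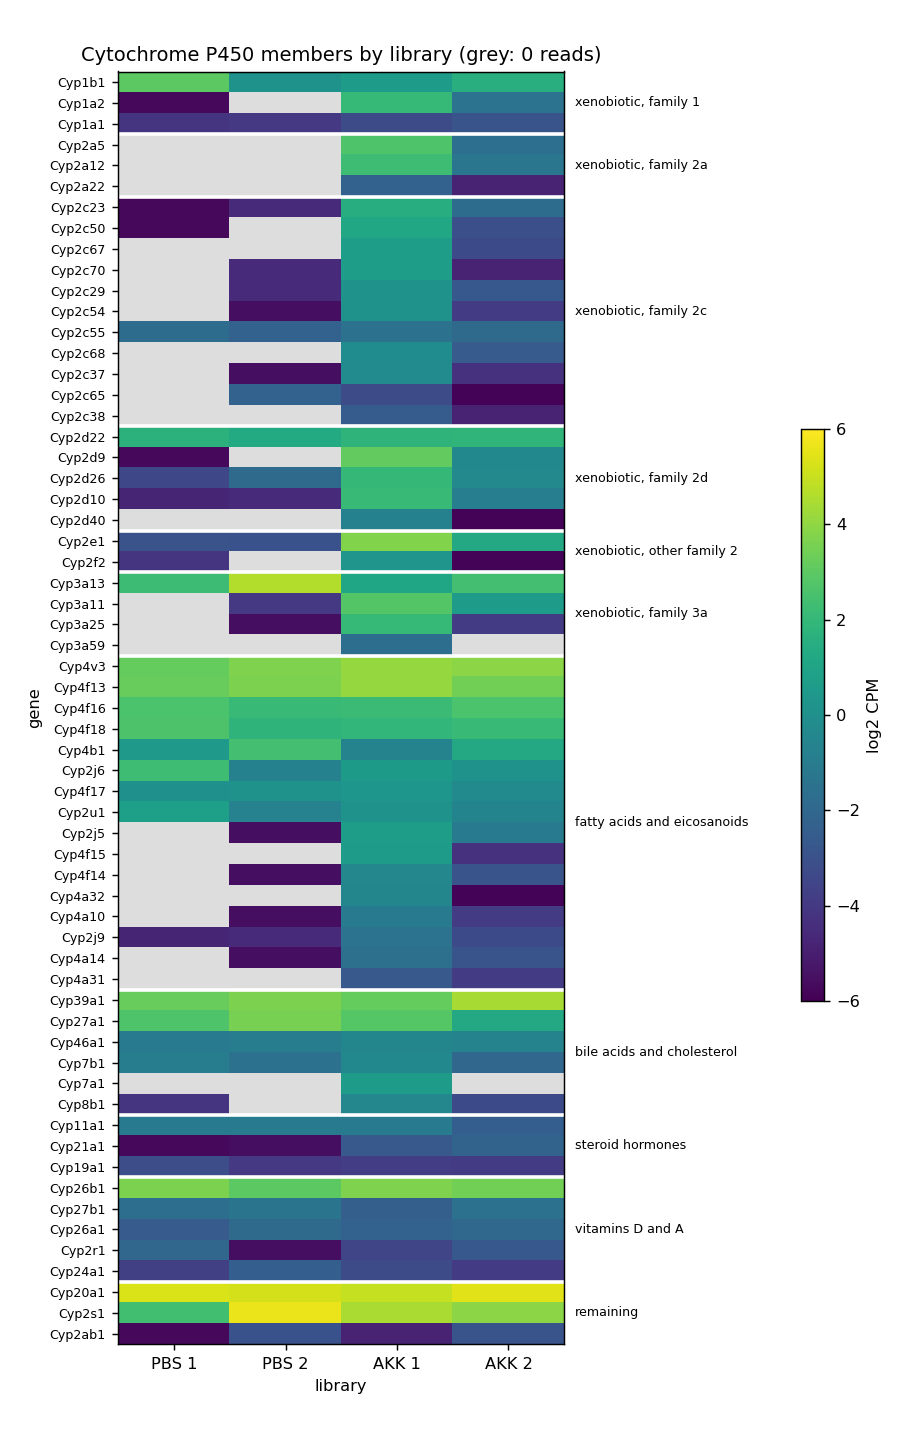
Level of each of the 61 members (rows, grouped by role) in the 4 libraries (columns), as log2 CPM, with 0 reads in grey. Apart from Cyp2c55, Cyp2c65, Cyp2d22 and Cyp3a13, the blocks of the Cyp2a, Cyp2c, Cyp2d, Cyp3a and Cyp4a genes are grey or dark in both PBS columns and brighter in AKK 1 than in AKK 2, while Cyp20a1, Cyp4v3, Cyp4f13 and Cyp26b1 are bright in all 4.

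**Figure D2:**
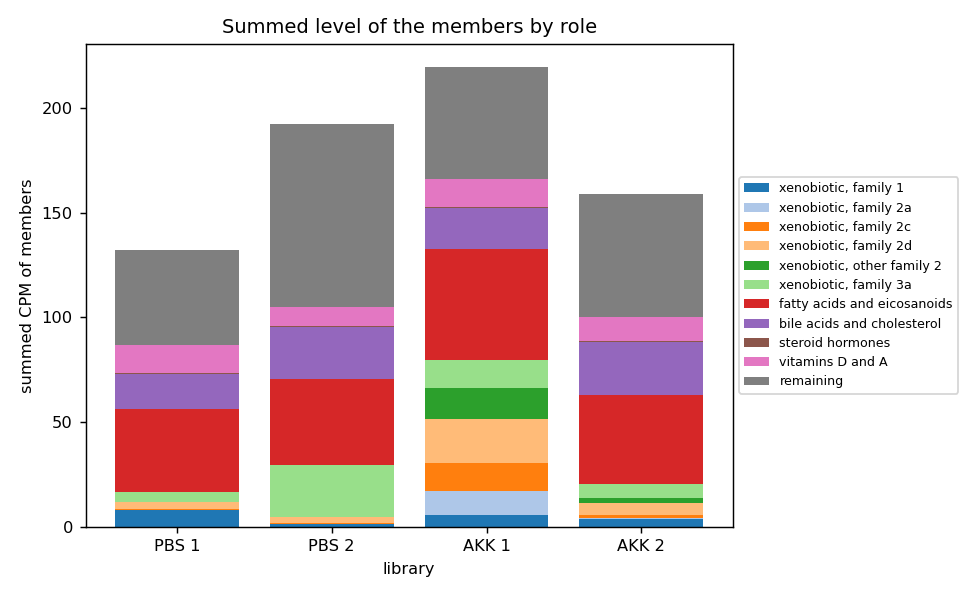
Summed CPM of the members (vertical axis) in each library, stacked by role. The totals of 132, 192, 219 and 159 CPM overlap between groups, and the Cyp2a, Cyp2c and Cyp2e/2f blocks are visible in AKK 1, small in AKK 2 and not visible in PBS.

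In the quasi-likelihood test of edgeR across 17479 genes, 32 members were kept by the filter on low counts and 0 passed an adjusted p of 0.05 in either direction (0.00572% of all genes passed as higher and 0% as lower). At an unadjusted p under 0.05, 10 of the 32 were higher (6.70% of all genes) and 0 were lower (8.62%). DESeq2 called 9 of the 32 higher (2.08% of all genes) and 0 lower (3.04%), and limma-voom called 0 (0% in either direction). The 9 were Cyp1a2, Cyp2a12, Cyp2c23, Cyp2d9, Cyp2d10, Cyp2d26, Cyp2e1, Cyp2j5 and Cyp3a11. Without adjustment, DESeq2 had 10 higher (6.86% of all genes) and 1 lower, Cyp3a13 (9.46%), and limma-voom 10 higher (5.96%) and 0 lower (8.39%) at p under 0.05. In edgeR with no filter on low counts, 15 of 61 members passed as higher and 0 as lower (1.03% and 1.21% of all genes). Without PBS 1, 6 of 54 passed as higher and 1, Cyp3a13, as lower (0.8% and 0.698%), and without PBS 2, 2 of 53 as higher and 0 as lower (0.527% and 1.2%). These fits leave 1 PBS library, which is assumed to vary like the AKK pair. Without AKK 1 or AKK 2, 0 passed (0% of all genes). Kept members with so few PBS reads passed the filter only through AKK, which favours a higher value there. The median log2 fold change of the kept members was 0.24, against 0.02 for all genes kept. It was 7.27 in the 8 kept members nearly absent from PBS and -0.014 in the 24 others. Those 8 made up 8 of the 10 members with an unadjusted edgeR p under 0.05 and 7 of the 9 called by DESeq2.

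**Figure D3:**
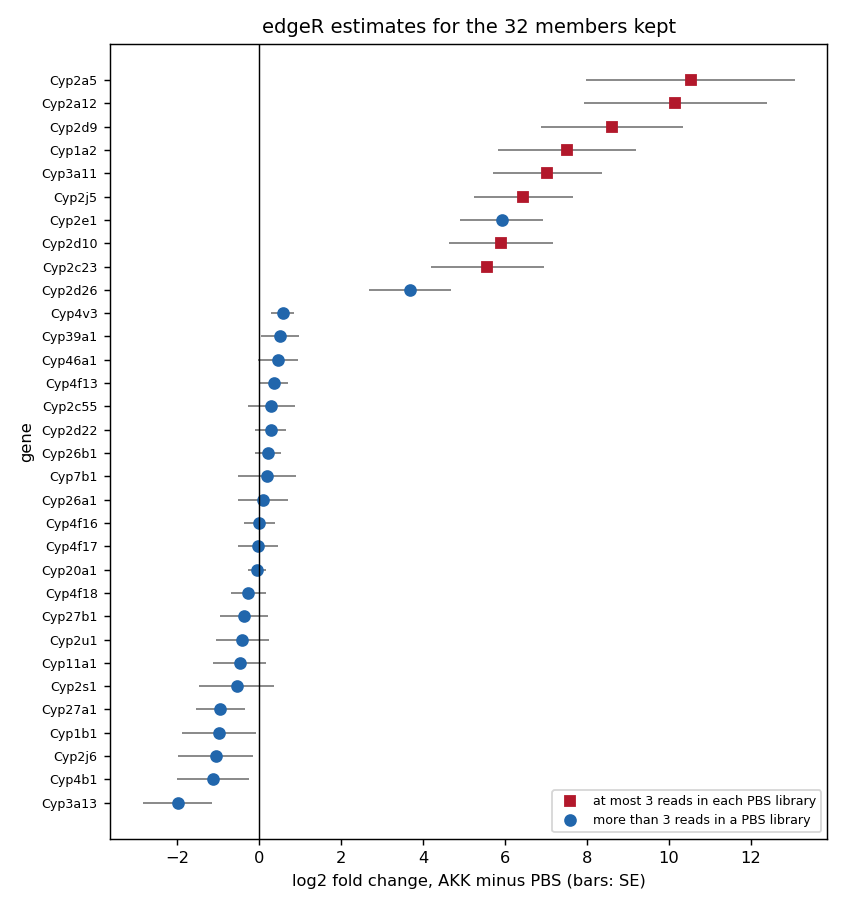
Log2 fold change, AKK minus PBS, with its SE (horizontal axis) for the 32 members kept by the filter (rows). Cyp2d26, at 3.68, and 9 members above it separate from the rest, which lie between -1.99 (Cyp3a13) and 0.57 (Cyp4v3).

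Family 1 enzymes oxidise polycyclic aromatic and planar compounds and are the classical targets of the aryl hydrocarbon receptor. Cyp1a2, the hepatocyte form that metabolises caffeine, had 1, 0, 229 and 22 reads (0.0187, 0, 4.05 and 0.377 CPM). Both AKK libraries exceeded both PBS libraries, and AKK 1 was 10.8-fold above AKK 2 (95% exact interval 6.93 to 17.5). The ratio of pooled AKK to PBS reads of Cyp1a2 was 220 (39.2 to 8740), and the edgeR estimate was 7.51 on the log2 scale (SE 1.68, adjusted p = 0.192). Intervals of pooled ratios, here and below, cover counting error only and leave out the spread between libraries. Cyp1a1, the inducible form of most tissues, had only 3, 3, 6 and 8 reads, with both AKK values the higher and a pooled ratio of 2.05 whose interval (0.740 to 6.51) includes 1. Cyp1b1, an extrahepatic form found in mesenchymal cells, read 7.93 and 1.11 against 1.56 and 2.997 CPM. Its PBS libraries enclosed both AKK values (log2 fold change -0.99, SE 0.90, adjusted p = 0.612), and without PBS 1 the estimate was 1.03. Summed over 7 fibroblast and stellate cell genes, the same libraries read 1867, 630, 913 and 1393 CPM, also highest in PBS 1 and lowest in PBS 2. That sum is mostly Col1a1, Col1a2 and Col3a1, and the order was not shared by Pdgfra (19.8, 12.6, 8.95 and 7.98 CPM), Pdgfrb (51.1, 27.8, 17.0 and 23.8 CPM) or Lrat (0.187, 0.0841, 0.212 and 0.394 CPM). The part of those cells in the Cyp1b1 values was not tested.

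Family 2a enzymes hydroxylate coumarin, nicotine and steroids. Cyp2a5, the coumarin 7-hydroxylase, had 0 and 0 reads in the PBS pair, then 368 and 19, and Cyp2a12, which acts on steroids, had 0 and 0 against 276 and 24. Neither gene had a PBS read, so both entered the family only through their AKK reads. With 3 reads over the group as the level that 0 allows, the pooled AKK level of Cyp2a5 was at least 113-fold higher. That of Cyp2a12 was at least 87.8-fold higher. These pooled values rest mostly on AKK 1 and do not hold for AKK 2 alone. Cyp2a5 read 6.51 CPM in AKK 1 and 0.325 in AKK 2, and Cyp2a12 4.88 and 0.411. The tests gave adjusted p of 0.224 and 0.208 in edgeR for Cyp2a5 and Cyp2a12, and 0.0616 and 0.0412 in DESeq2. The close copy Cyp2a22 had 0, 0, 12 and 2 reads. Reads of near-identical genes can be lost or split, and 5.69% of the 151-base windows of Cyp2a5 also occur in another gene, mostly Cyp2a4, which had 0 reads in all libraries. No member of family 2b, the phenobarbital-inducible genes, reached 10 reads, and Cyp2b10 had 2, 0, 1 and 0 reads.

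The 2c family, of which 11 of 15 genes were members, metabolises drugs and arachidonic acid. Cyp2c23, an arachidonic acid epoxygenase, was the best covered of those low in PBS, with 1 and 2 reads against 156 and 17 (0.0187, 0.0421, 2.76 and 0.291 CPM). Its groups did not overlap (log2 fold change 5.57, SE 1.37, adjusted p = 0.211 in edgeR and 0.00285 in DESeq2). Cyp2c50 had 1, 0, 127 and 7 reads, Cyp2c67 0, 0, 94 and 6, and Cyp2c70, an enzyme that makes muricholic bile acids in mice, 0, 2, 91 and 2. These 3 genes failed the filter on low counts, which their level passed only in AKK 1. The AKK and PBS ranges of Cyp2c70 overlapped in CPM, since AKK 2 (0.0343) lay below PBS 2 (0.0421), and AKK 1 was 47.0-fold above AKK 2 (12.6 to 394). Cyp2c29, Cyp2c37, Cyp2c38, Cyp2c54 and Cyp2c68 followed the same order with 10 to 64 reads in AKK 1, 2 to 10 in AKK 2 and 0 to 2 in the PBS libraries. Cyp2c55, a form of the gut, differed from these, with 16, 10, 20 and 16 reads (log2 fold change 0.29, SE 0.57, adjusted p = 0.824). The gut form Cyp2c65 had 0, 10, 6 and 1 reads, and its groups overlapped. Across the family the copies are close: 12.9% of the 151-base windows of Cyp2c67 recur in other genes, the highest share of any member, while 43 of the 61 members shared no window.

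Family 2d enzymes act on basic drugs and steroids, and in 5 of 5 members both AKK libraries were the higher (25.7% of all genes). Of these, Cyp2d9, Cyp2d10 and Cyp2d40 had at most 3 reads in each PBS library. They entered the family only through their AKK reads, which partly sets this count. Cyp2d9, a steroid 16-alpha-hydroxylase of adult male liver, had 1, 0, 494 and 44 reads (0.0187, 0, 8.74 and 0.754 CPM). Groups were separate, with a pooled ratio for Cyp2d9 of 472 (84.4 to 18694) and a log2 fold change of 8.61 (SE 1.74, adjusted p = 0.182 in edgeR and 4.65e-05 in DESeq2). Cyp2d10 read 0.0375 and 0.0421 against 4.44 and 0.548 CPM (log2 fold change 5.89, SE 1.27, adjusted p = 0.188 in edgeR). Cyp2d26 had more reads in PBS, at 5 and 13 reads against 223 and 46 (3.68, SE 1.00, adjusted p = 0.231 in edgeR). Cyp2d40 had 0, 0, 34 and 1 reads. Cyp2d22, alone in the family, was well expressed in all tumours, at 3.32 and 2.57 against 3.47 and 3.65 CPM. Both AKK values of Cyp2d22 were the higher, but by less than the libraries' spread (0.27, SE 0.39, adjusted p = 0.751 in edgeR).

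Cyp2e1, the ethanol- and acetone-oxidising enzyme of hepatocytes around the central vein, had the smallest p of the family in edgeR and DESeq2. In limma-voom Cyp2j5, Cyp3a11 and Cyp2a12 had smaller ones. The reads of Cyp2e1 were 7, 6, 759 and 139 (0.131, 0.126, 13.4 and 2.38 CPM). The PBS libraries of Cyp2e1 were alike and both AKK libraries were higher, with a log2 fold change of 5.91 (SE 1.01, adjusted p = 0.182 in edgeR and 1.92e-09 in DESeq2). Per kilobase of exon, Cyp2e1 reached 6.22 CPM in AKK 1, second to Cyp20a1 (13.5), and 1.10 in AKK 2. Cyp2f2, which activates naphthalene and marks hepatocytes near the portal vein, had 3, 0, 67 and 1 reads, and its groups overlapped because AKK 2 (0.0171 CPM) lay below PBS 1 (0.0562 CPM). AKK 1 exceeded AKK 2 by 69.2-fold in Cyp2f2 (12.01 to 2774), against 5.64-fold in Cyp2e1 (4.70 to 6.81), and the intervals do not overlap. That contrast compares libraries, not feeding.

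Family 3a contains the main drug-oxidising enzymes of liver and gut. Cyp3a11, the hepatic form induced through PXR, had 0 and 3 reads in PBS against 395 and 89 in AKK (0, 0.0631, 6.99 and 1.52 CPM). Its groups were separate (log2 fold change 7.03, SE 1.32, adjusted p = 0.182 in edgeR and 5.85e-07 in DESeq2). Cyp3a25, a second hepatic form, had 0, 1, 231 and 4 reads, a pooled ratio of 206 (36.7 to 8185) that came almost wholly from AKK 1. Cyp3a59 was read only in AKK 1 (18 reads, against 0 in the other 3 libraries). Cyp3a13, expressed in intestine as well as liver, ran differently: it read 4.69 and 24.8 against 2.09 and 5.31 CPM. PBS 1 lay between the AKK libraries, and the estimate of -1.99 (SE 0.85, adjusted p = 0.338) was -0.36 without PBS 2 (adjusted p = 0.898) and -2.74 without PBS 1 (adjusted p = 0.0120), each with 1 PBS library left and the spread taken from AKK alone.

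Enzymes of fatty acids and eicosanoids included 8 members nearly absent from PBS and 8 others, and both kinds occurred within the Cyp4f and Cyp2j subfamilies. The Cyp4a genes, omega-hydroxylases known as targets of PPAR alpha, were read at 28 and 4 (Cyp4a10), 19 and 8 (Cyp4a14), 9 and 4 (Cyp4a31) and 40 and 1 reads (Cyp4a32) in AKK 1 and AKK 2. Each Cyp4a gene had 0 or 1 read in a PBS library. Cyp4f14 (0, 1, 42 and 8 reads) and Cyp4f15 (0, 0, 86 and 3 reads), which hydroxylate leukotriene B4 and related lipids, followed them. Cyp2j5, an arachidonic acid epoxygenase of liver and kidney, had 0, 1, 93 and 29 reads, with separate groups (log2 fold change 6.45, SE 1.204, adjusted p = 0.182 in edgeR and 0.00575 in DESeq2). The remaining family 4 members were present in every tumour. Cyp4v3, an omega-hydroxylase of fatty acids, read 8.96 and 12.7 against 16.9 and 15.2 CPM. Both AKK values of Cyp4v3 were the higher, without passing the test (0.57, SE 0.28, adjusted p = 0.384 in edgeR). Cyp4f13 read 9.30 and 12.6 against 17.3 and 10.7 CPM (log2 fold change 0.36, SE 0.34, adjusted p = 0.623). Cyp4f16 read 6.17 and 4.42 against 4.49 and 6.10 CPM, an estimate of 0.00 (SE 0.38). Cyp4f18, a leukotriene B4 hydroxylase of myeloid cells, read 6.32 and 3.51 against 3.86 and 4.30 CPM (log2 fold change -0.27, SE 0.43, adjusted p = 0.778). The groups overlapped in Cyp4f13, Cyp4f16 and Cyp4f18. Cyp2j6 (4.78 and 0.610 against 1.45 and 1.13 CPM) and Cyp4b1 (1.39 and 5.28 against 0.637 and 2.40 CPM) had a wider gap from PBS 1 to PBS 2 than from one group mean to the other. Cyp4f17 (1.03 and 1.07 against 1.24 and 0.822 CPM) and the long-chain fatty acid hydroxylase Cyp2u1 (1.71 and 0.631 against 1.08 and 0.668 CPM) overlapped between groups. Cyp2j9 had 2, 2, 21 and 6 reads.

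Bile acid and cholesterol enzymes showed the split within 1 pathway. Cyp7a1, the rate-limiting enzyme of the classical route, had 84 reads in AKK 1 and 0 in PBS 1, PBS 2 and AKK 2. A count of 0 in AKK 2 allows up to 0.0514 CPM, against 1.49 CPM in AKK 1. Cyp8b1, the sterol 12-alpha-hydroxylase that sets the share of cholic acid, had 3, 0, 42 and 6 reads, a pooled ratio of 14.05 (4.53 to 70.5), with 19.05% of its reads on the opposite strand. Cyp27a1, the mitochondrial sterol 27-hydroxylase of hepatocytes and macrophages, read 6.49 and 11.7 against 7.06 and 2.35 CPM. Its lowest value was AKK 2 and the groups overlapped (log2 fold change -0.95, SE 0.60, adjusted p = 0.472). Cyp39a1, a 24-hydroxycholesterol 7-alpha-hydroxylase, read 9.15, 12.3, 8.85 and 21.6 CPM in PBS 1, PBS 2, AKK 1 and AKK 2. AKK 2 alone was high in Cyp39a1 (0.51, SE 0.46, adjusted p = 0.611), and without it the estimate was -0.28. Cyp7b1, the oxysterol 7-alpha-hydroxylase, read 0.525 and 0.357 against 0.761 and 0.240 CPM (log2 fold change 0.18, SE 0.71, adjusted p = 0.920). Cyp46a1, the cholesterol 24-hydroxylase of neurons, read 0.469 and 0.526 against 0.708 and 0.651 CPM with both AKK values the higher (0.45, SE 0.49, adjusted p = 0.674).

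Steroid hormone enzymes were near the floor of detection. Cyp11a1, which cleaves the cholesterol side chain, had 25, 23, 28 and 11 reads, and Cyp19a1, the aromatase, 6, 3, 4 and 4. Cyp21a1, the adrenal 21-hydroxylase, had 1 and 1 reads against 9 and 13, a pooled ratio of 9.66 (2.37 to 84.7), and it was, with Cyp1a1, 1 of 2 members low in PBS in which AKK 2 was above AKK 1. Cyp11b1 and Cyp11b2 had 0 reads. Among the vitamin enzymes, Cyp26b1, which degrades retinoic acid, was the best expressed at 12.5 and 7.99 against 12.8 and 10.9 CPM. Its groups overlapped (log2 fold change 0.21, SE 0.32, adjusted p = 0.771). Cyp26a1 (9, 13, 12 and 15 reads), the vitamin D hydroxylases Cyp27b1 (17, 18, 11 and 20 reads) and Cyp24a1 (4, 9, 6 and 4 reads) had few reads in all tumours. Cyp2r1, the vitamin D 25-hydroxylase, had 13, 1, 5 and 9 reads, with 48.1% of the reads at its locus on the opposite strand, so its value is uncertain.

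Cyp20a1, an enzyme without a settled substrate, was the highest member per kilobase in all 4 libraries, at 17.4, 16.5, 13.5 and 19.1 CPM per kilobase in PBS 1, PBS 2, AKK 1 and AKK 2. In CPM it read 39.9 and 37.6 against 30.9 and 43.7, with AKK values on both sides of PBS (log2 fold change -0.05, SE 0.23, adjusted p = 0.925). Cyp2s1, a form of epithelia, read 5.10 and 49.5 against 22.3 and 14.9 CPM. The PBS libraries enclosed both AKK values of Cyp2s1, and its estimate of -0.55 (SE 0.91, adjusted p = 0.789) turned to 1.83 without PBS 2 (adjusted p = 0.103). Cyp2ab1 had 1, 6, 2 and 8 reads. Of 18 members kept with 20 or more reads in each PBS library, 6 differed over 2-fold between the PBS libraries, and the widest gap was the 9.70-fold of Cyp2s1. Among 5 cholangiocyte markers, Krt7 was also far the highest in PBS 2 (1.07, 126, 2.48 and 5.00 CPM) and Krt19 was highest there by less (788, 1952, 1752 and 1160 CPM). Sox9 (246, 208, 200 and 204 CPM), Epcam (0.131, 0.0210, 2.25 and 3.37 CPM) and Spp1 (1930, 2069, 2915 and 4511 CPM) were not. The part of those cells in the Cyp2s1 and Cyp3a13 values was not tested.

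The AKK libraries were compared member by member, as a description of 2 libraries. AKK 1 exceeded AKK 2 in 47 of 61 members (53.8% of all genes) and in 30 of the 32 that PBS nearly lacked. Over the 30 of these with a read in AKK 2, the ratio of AKK 1 to AKK 2 had a median of 8.79 and ran from 0.715 (Cyp21a1) to 69.2 (Cyp2f2). The 9 hepatocyte markers that were higher in AKK had ratios from 1.48 (Fgb) to 9.24 (Tat), with a median of 4.97. Several P450 genes lay beyond that range by their intervals, among them Cyp3a25 at 59.7 (23.0 to 221), Cyp2a5 at 20.01 (12.6 to 33.6), and Cyp2c70 and Cyp2f2. Cyp2j5 (3.31, 2.16 to 5.22) and Cyp3a11 (4.59, 3.63 to 5.84) lay within it. These intervals cover counting error of the P450 genes only. Per kilobase, Cyp2e1 was the highest of the genes that were low in PBS in both AKK libraries, followed in AKK 1 by Cyp2d9 (3.29) and Cyp2a5 (3.14) and in AKK 2 by Cyp2d10 (0.333) and Cyp3a11 (0.299).

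**Figure D4:**
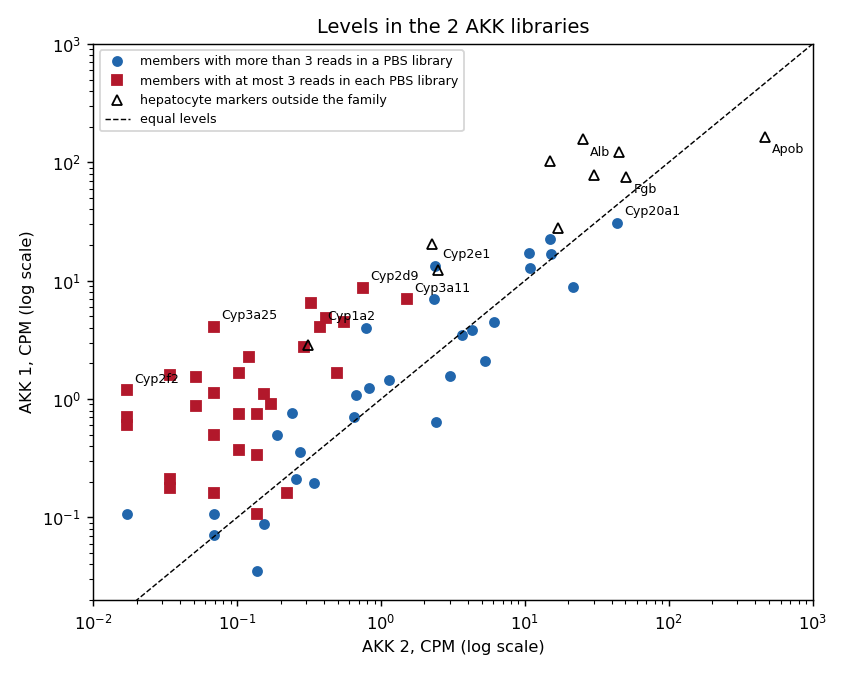
CPM in AKK 2 (horizontal, log scale) against AKK 1 (vertical, log scale) for members with reads in both, with hepatocyte markers outside the family as open triangles and equal levels as a dashed line. Members that PBS nearly lacked lie above the line with 2 exceptions, from 2.32-fold (Cyp4a31) to 69.2-fold (Cyp2f2), while the other members scatter around it. Cyp7a1 and Cyp3a59, at 0 in AKK 2, are not drawn.

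Known sex bias and position in the liver lobule were read from short lists. Cyp2d9, male-biased in adult mouse liver, was present in both AKK libraries, and Cyp7b1, also male-biased, in all. Of 9 female-biased genes, 6 had 0 reads in every library (Cyp2b13, Cyp2a4, Cyp3a44, Cyp3a16, Cyp2c40 and Cyp2c69). Reads that map to several places were not counted, so 0 reads do not show absence of a gene with close copies. Cyp2b9 had 1 read in AKK 1, Cyp17a1 had 2, 0, 1 and 0 reads, and Cyp39a1 was read in all. The Y-linked gene Ddx3y read 28.6, 5.61, 6.10 and 4.30 CPM and the female-specific transcript Xist 3.30, 6.56, 3.03 and 1.75 CPM, so that both were present in every library. Of 8 pericentral members 7 lay higher in both AKK libraries (25.7% of all genes), with Cyp7a1 the exception. All of the 8 but Cyp2e1 (7 and 6 reads in PBS) had at most 3 reads in each PBS library. They entered the family only through their AKK reads, which partly sets this count. Outside the family, the pericentral gene Rgn had 2, 1, 300 and 44 reads and the periportal gene Pck1 0, 1, 586 and 122. Of the 6 pericentral and 6 periportal genes outside the family, 3 and 6 lay higher in both AKK libraries and 1 and 0 lower (25.7% and 24.3% of all genes). The 3 include Rhbg, with 0, 0, 3 and 1 reads, which falls below the 10 reads that those shares require. Glul, another pericentral gene, read 107, 130, 164 and 138 CPM, and Oat, also pericentral, went the other way at 10.3 and 9.67 against 4.94 and 5.14 CPM (log2 fold change -0.99, adjusted p = 0.248 in edgeR and 0.0270 in DESeq2).

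Electron donors and haem enzymes were read in every tumour, at widely differing levels. Fdxr was the lowest at 5.70 and 5.34 against 8.97 and 5.24 CPM, and Fdx1 read 13.8 and 19.1 against 32.1 and 12.4 CPM. Of 10 such genes found and kept, 0 passed in edgeR or DESeq2 and 0 had an unadjusted p under 0.05, and 2 lay higher and 2 lower in both AKK libraries (26.7% and 24.7% of genes kept). Por, the reductase that serves microsomal P450s, read 147 and 203 against 175 and 224 CPM. Its groups overlapped (log2 fold change 0.19, adjusted p = 0.733). Cytochrome b5 of the outer mitochondrial membrane (Cyb5b) read 676 and 587 against 320 and 497 CPM (-0.63, adjusted p = 0.367), and Cyb5r3, its reductase, 225 and 232 against 278 and 306 CPM. Alas1, the first enzyme of haem synthesis in liver, read 41.0 and 45.2 against 39.0 and 32.9 CPM.

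Regulators included genes near 0 in PBS and genes read throughout. Of 18 regulators, 15 were kept, 0 passed in edgeR and 2 in DESeq2 as higher and 0 as lower (2.08% and 3.04% of all genes), where CAR (Nr1i3) had an adjusted p of 0.000735 and PXR (Nr1i2) one of 0.00312. Nr1i3 had 0, 1, 270 and 22 reads and Nr1i2 0, 0, 76 and 16 reads, with separate groups for both. Ppara had 2, 0, 42 and 5 reads and was not kept. The aryl hydrocarbon receptor Ahr (120 and 87.1 against 90.3 and 106 CPM), its partner Arnt (125 and 117 against 81.7 and 94.3 CPM) and Hnf4a (74.9 and 168 against 48.7 and 119 CPM) were abundant in every tumour, with adjusted p of 0.887, 0.321 and 0.638 in edgeR. Unadjusted, 4 regulators were higher (6.70% of all genes) and 1 lower (8.62%) at p under 0.05 in edgeR. Of related genes outside the symbol rule, Cyp4a12a had 0, 1, 92 and 2 reads, and Cyp4a12b 0, 0, 9 and 5. Both Cyp3a41 copies had 0 reads, but reads that map to both copies would not be counted. Cyp51, the lanosterol demethylase of cholesterol synthesis, was expressed throughout at 184, 186, 126 and 164 CPM (log2 fold change -0.35, adjusted p = 0.454). The thromboxane synthase gene Tbxas1, a P450 of myeloid cells, read 5.12, 5.61, 5.66 and 4.47 CPM.

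Lists of markers of other cell types are given by their counts, beside 25.7% of all genes higher and 24.3% lower in both AKK libraries. All 5 Kupffer cell markers, genes of the resident liver macrophage, lay higher in both AKK libraries, and their summed level was 0.337 and 0.0210 against 18.2 and 2.38 CPM. The 32 P450 members that PBS nearly lacked summed to 0.337 and 0.505 against 62.95 and 6.64 CPM. AKK 1 was the highest and AKK 2 the next in both sums. The 32 members were chosen for few PBS reads, which largely sets AKK above PBS in their sum. Of 5 general macrophage markers 4 lay lower in both AKK libraries (640 and 500 against 439 and 436 CPM summed), and of 5 endothelial markers 4 did. The fifth, the sinusoidal gene Stab2, was the higher in both (0.131 and 0.126 against 2.65 and 0.822 CPM). Of 5 cholangiocyte markers 2 lay higher and 1 lower, of 7 fibroblast and stellate cell markers 1 and 2, and of 5 hepatoma and fetal liver markers 0 and 3. Skeletal muscle markers, lower in both AKK libraries in 4 of 5, were highest in PBS 1 (200 CPM summed, against 2.14 to 5.70 CPM in the others). The part of these cells in the P450 values was not tested.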

How the data were processed

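RNA of mouse liver tumours was sequenced as pairs of 151 bp reads. The authors deposited raw counts of reads for each gene, laid out as STAR writes them. Tools named in the submitters' processing notes are STAR 2.5.2 and RSEM 1.2.31, and build and annotation are not given in the sources used. The own-strand column, with 95.4 to 96.2% of reads assigned by strand, was used. The 4 rows that name no gene were left out: unmapped (8.97 to 12.3%), multimapping (4.20 to 6.66%), outside genes (11.4 to 13.5%) and ambiguous (1.18 to 1.37%). Such counting drops reads that map to several places, so close paralogs are undercounted. Symbols were matched by identifier without version for 48058 of 48526 identifiers.

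AKK and PBS were compared with edgeR 4.0.16 under R 4.3.3 (legacy glmQLFit, glmQLFTest, two-sided, TMM scaling, filterByExpr, group as the only term, prior count 0.125, Benjamini-Hochberg adjustment at 0.05 over 17479 genes). The adjusted p-values in the text are from edgeR unless another tool is named. SEs are the log2 fold change over the root of F. CPM values use TMM library sizes, and 0 reads allow 3. Ratios of pooled reads carry exact conditional binomial intervals (95%), which cover counting error only and not the spread between libraries of a group. Exon lengths and the shared 151-base windows come from GENCODE M21, which holds 42 of the 61 member identifiers with the same version. The fits were tested on simulated counts. Alternatives were DESeq2 1.42.0, limma-voom (limma 3.58.1), other scalings and filters, unstranded counts, a replicate block and leaving out each library. Alternatives for the count of members above both PBS libraries were chosen after seeing the data.

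Members, roles and lists were chosen with earlier results of these data known. Described in full were up to 4 members per role by mean CPM (each xenobiotic subfamily counting as a role), the 10 with the smallest edgeR p, and Cyp1a2 and Cyp2d9. From the comparison lists the rule takes up to 3 genes by mean CPM. All other genes named, and the group of members with at most 3 reads in each PBS library, were chosen after their values were seen. Replicate numbers are those of the titles, which state no pairing, and the main fit used none. Over 17479 genes, the differences between numbers correlated with r = -0.0153 between groups. That value cannot decide whether the libraries were paired, since differences particular to single libraries can hide a shared one.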

Additional observations from a re-analysis of the deposited data

How the results depend on the processing

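The count of P450 members past the threshold depended on the test and the filter. It was 0 in edgeR, also with other scalings, a filter of 1 CPM in 2 libraries, unstranded counts, limma-voom and a threshold of 0.1. It was 9 in DESeq2 and 15 without a filter on low counts. The replicate block, which matches samples by the number in their titles alone, gave 7 members and 209 genes. Leaving out a library gave 0 to 7 members, with 7 without PBS 1 (6 higher and Cyp3a13 lower), 2 without PBS 2 and 0 without AKK 1 or AKK 2. In each of these fits the lone library of a group is assumed to vary like the other group. Over all genes edgeR called 1, against 3 with upper-quartile scaling, 631 without a filter, 878 in DESeq2, 0 in limma-voom, 3 at a threshold of 0.1 and 0 to 324 with a library left out. Members above both PBS libraries numbered 33 (25.7% of all genes), 31 with unstranded counts and 30 with at least 20 reads (of 54). With a library left out they numbered 36 to 43, but groups separate more easily when a group holds a lone library. The shares of all genes under these other settings were not computed, so these counts do not show that the result is robust. With a library left out, log2 fold changes ran from 4.19 to 6.67 for Cyp2e1, 5.96 to 10.997 for Cyp2d9 and 5.55 to 10.9 for Cyp3a11, each lowest without AKK 1.

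Directions turned in members without a call in edgeR, and the cause was not tested. Cyp4f16 was -0.014 with DESeq2 size factors and in DESeq2, -0.0085 without a filter, -0.0035 with the filter of 1 CPM and -0.0015 in limma-voom. Cyp7b1 was -0.034 in limma-voom, and Cyp2s1 was 0.24 in limma-voom and 0.18 with the replicate block. With a library left out, log2 fold changes ran from -0.25 to 0.26 for Cyp4f16, -0.87 to 0.77 for Cyp7b1, -1.42 to 1.83 for Cyp2s1, -0.28 to 1.01 for Cyp39a1, -0.022 to 0.65 for Cyp4f13, -0.66 to 0.21 for Cyp4f18, -0.33 to 0.18 for Cyp20a1, -1.32 to 0.051 for Cyp11a1, -0.11 to 0.57 for Cyp26b1, -0.22 to 0.44 for Cyp26a1 and -1.82 to 1.03 for Cyp1b1.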
